A study of Mus musculus with 21 samples.

Results

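XCT790 was compared with its solvent in healthy aortic valves of mice that carry 1 working copy of Notch1. The comparison takes 5 XCT790 libraries and 6 solvent libraries, 11 of the 21 RNA-seq libraries of the series, chosen by sample title. Both groups have the genotype N1+/-, generation 2 Terc-/- (N1het below), so treated and solvent mice alike lacked Terc, the gene of telomerase RNA, as did all mice of the series. XCT790 or solvent was injected into the abdomen once a day from the age of 4 weeks on, for another 4 weeks, with XCT790 at 5 mg/kg/day. The other 10 libraries, 3 from N1het valves with stenosis given XCT790, 3 from N1het valves with stenosis given solvent and 4 from healthy valves of N1+/+, generation 2 Terc-/- mice given solvent (WT below), shared the estimate of the spread and are used only side by side. Valves were lysed whole, so a library mixes interstitial, endothelial, immune and adjoining muscle cells, and fewer cells of a type cannot be told apart from less RNA per cell. Whether the replicates of a group are different animals is not stated, and p then covers only the spread between libraries, which may be partly technical.

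In 3 of the 5 XCT790 libraries, replicates 1, 2 and 3, the agent field of the labels reads solvent, against the title, the description and the column name. In stenotic valves the agent field reads XCT790 for all 6 libraries, against the titles of the 3 solvent ones. Values with groups from the agent field are given beside the gene lists that it moved most.

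XCT790 is an inverse agonist of ERRα, an orphan nuclear receptor that Esrra encodes. ERRα binds short DNA elements beside genes of the respiratory chain, the TCA cycle and fatty acid oxidation, and works with the coactivators PGC-1α and PGC-1β, which Ppargc1a and Ppargc1b encode. An inverse agonist lowers the activity of the receptor below its unliganded level, so the comparison asks which transcripts of a healthy, Notch1-haploinsufficient valve differ after exposure to such a compound.

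The 11 libraries held 10.9 to 27.3 M reads. Replicates 1 and 2 of XCT790 and replicates 1 and 4 of solvent belong to a set of 6 deep libraries of the series, each above 16 M reads, in which 0.0581% to 0.521% of reads lay on mitochondrially encoded genes, against 0.851% to 8.40% in the other libraries. In healthy valves the deep libraries were therefore 2 of 5 with XCT790 and 2 of 6 with solvent. Markers of heart muscle, which borders the valve, varied more than any other marker list that the library measures covered. Their summed level was 208 to 2898 FPKM with XCT790 and 282 to 7245 FPKM with solvent, where FPKM are fragment counts divided by the length of the gene and the size of the library. XCT790 replicate 5 and solvent replicates 2, 5 and 6 carried the most. For 7 library measures (depth, mitochondrial share and the summed markers of 5 cell types), exact two-sided permutation tests between the groups gave p from 0.177 for macrophage markers to 0.970 for interstitial cell markers, or 0.591 to 0.970 after Benjamini-Hochberg adjustment. The markers of valve interstitial cells and fibroblasts, the main cells of the valve, summed to 11168 to 13469 FPKM with XCT790 and 9737 to 15787 FPKM with solvent, so the defining markers of the labelled tissue were present.

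No gene passed the test. Of 14966 genes with a mean of at least 1 FPKM over the series, limma called 0 at an adjusted p under 0.05 (percent called 0.0%), and the smallest adjusted p was 1. An unadjusted p under 0.05 was reached by 397 genes, 2.65% of those tested, of which 244 were higher with XCT790 (1.63%) and 153 lower (1.02%). A flat distribution of p would put 748 genes there. The groups did not overlap, with every XCT790 library above or every one below all solvent libraries, for 40 genes (0.267%), 27 of them above (0.18%) and 13 below (0.0869%). The median log2 difference, XCT790 minus solvent on the log2(FPKM + 1) scale, was 0.03 over all genes, and 54.0% of genes had a difference above 0. The median standard error (SE) was 0.41, and the 95% interval of the difference lay within 2-fold for 6103 genes (40.8%). It lay wholly beyond 2-fold for 4 genes (0.0267%), which were picked out after their values were seen: Itgb2, which was higher, and Ckmt2 and a pair of clone-named genes, AL645685.1 and AC116121.1, which were lower. Because nothing passed, the genes below are described by their values, where p under 0.05 means the unadjusted p, and each has an adjusted p of 1.

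**Figure D1:**
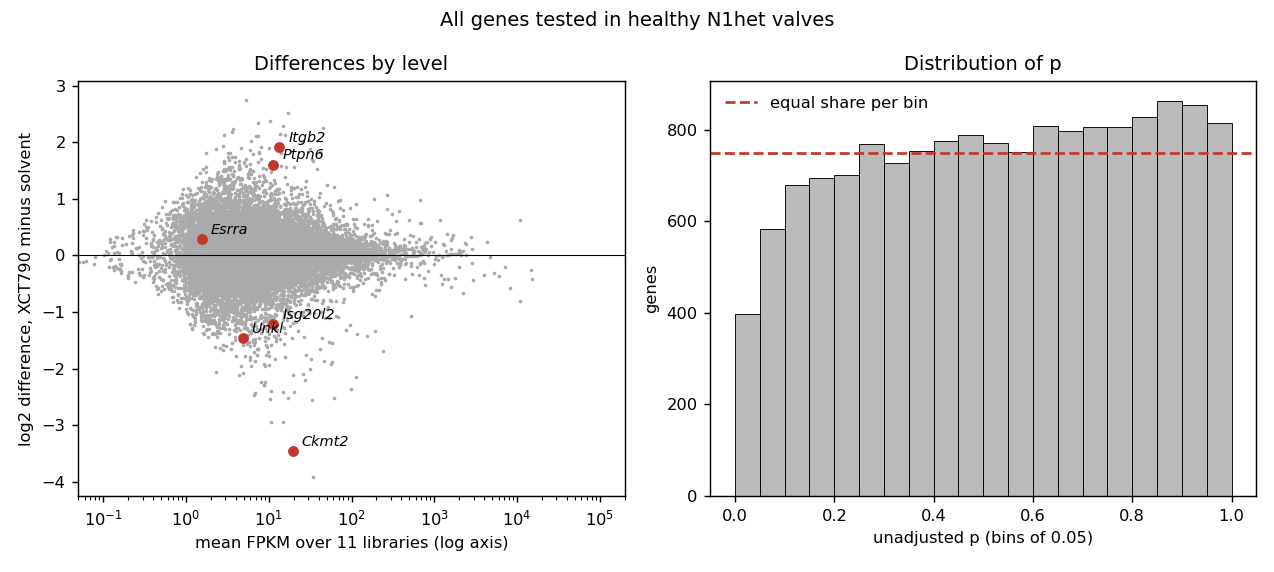
Left, the log2 difference between XCT790 and solvent (y axis) against the mean FPKM over 11 libraries (x axis, log scale), 1 point per gene, with 6 genes marked. Right, the number of genes (y axis) by unadjusted p in bins of 0.05 (x axis), where the first bin holds 397 genes and lies below the dashed line of equal shares at 748.

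The receptor that XCT790 binds and its partners were expressed at low levels. Esrra had 2.47, 1.19, 1.24, 1.42 and 2.89 FPKM in XCT790 replicates 1 to 5, against 0.364 to 1.84 FPKM with a median of 1.37 FPKM in the solvent libraries. Of the XCT790 libraries, replicates 1 and 5 lay above all solvent libraries and the other 3 within their range, and the log2 difference was 0.29 with an SE of 0.31 (95% interval -0.36 to 0.94). Esrrg, the family member best known from heart and skeletal muscle, had 0 to 1.76 FPKM with XCT790 and 0 to 3.67 FPKM with solvent. Esrrb, which is known from stem cells and the inner ear, was above 0 in 1 XCT790 library (0.168 FPKM) and in 2 solvent libraries (0.312 and 1.86 FPKM), too low to be tested. Ppargc1a had 1.03 to 6.73 FPKM with XCT790 and 1.20 to 13.2 FPKM with solvent (log2 difference -0.26, SE 0.55, 95% interval -1.40 to 0.89). Ppargc1b had 0 to 3.91 FPKM with XCT790 and 0.215 to 1.26 FPKM with solvent and also stayed under the filter. Of 13 tested regulators and cofactors of the ERR family, 6 were higher and 7 lower with XCT790, and 0 had a p under 0.05. Notch1, the gene carried in 1 copy, had 19.4 to 43.6 FPKM with XCT790 and 24.0 to 50.03 FPKM with solvent (log2 difference -0.14, SE 0.23, 95% interval -0.62 to 0.35). In WT valves it had 26.6 to 46.5 FPKM, which overlapped with both N1het groups, and the log2 difference of solvent-treated N1het from WT valves was 0.06 with an SE of 0.25. The deleted part of Notch1 is not given in the labels, so its FPKM does not check the genotype. Terc is not among the genes analysed here.

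Genes of mitochondrial energy metabolism, which hold most reported ERRα targets, were mostly lower with XCT790. Of 47 tested genes of a list of reported ERRα targets, 37 were lower and 10 higher, with a median log2 difference of -0.32, against 0.03 over all genes. At p under 0.05, 3 of the 47 were lower and 0 higher, where 1.02% of all genes were lower at that p. Nuclear genes of respiratory complex I, which takes electrons from NADH, were lower in 28 of 37 (median -0.23, 2 lower at p under 0.05). Those of complexes II to V, which pass the electrons on and make ATP, were lower in 33 of 43 (median -0.17, 0 at p under 0.05). TCA cycle genes were lower in 17 of 25 (median -0.19, 1 at p under 0.05) and genes of fatty acid uptake and oxidation in 24 of 29 (median -0.17, 0 at p under 0.05).

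Among these genes, Ckmt2, the muscle form of mitochondrial creatine kinase, had the smallest p. It had 0.0548, 0.394, 0.0498, 0.0940 and 4.36 FPKM in XCT790 replicates 1 to 5, against 0.874 to 113 FPKM with a median of 24.9 FPKM with solvent. All XCT790 libraries but replicate 5 lay below every solvent library, and the log2 difference was -3.46 with an SE of 1.02 (95% interval -5.58 to -1.33). Ckmt2 is at the same time a heart muscle marker, and 29 of 30 tested heart muscle markers were lower with XCT790 (median -1.07), with 1 of them, Ckmt2, at p under 0.05. That median was 0.64, with 24 of 30 markers higher, with groups from the agent field, and 0.04, with 16 of 30 higher, in the libraries whose agent field and title say the same. Leaving out 1 library gave -1.59 (without XCT790 replicate 5) to -0.56 (without solvent replicate 6). Idh3a, a subunit of the TCA cycle enzyme that oxidises isocitrate, had 7.97, 6.95, 8.92, 3.81 and 22.5 FPKM with XCT790, against 8.06 to 28.2 FPKM with a median of 17.9 FPKM with solvent. XCT790 replicates 3 and 5 lay within the solvent range and the other 3 below it (log2 difference -0.91, SE 0.39, 95% interval -1.73 to -0.10). Ndufb9, an accessory subunit of complex I, had 77.8 to 147 FPKM with XCT790 and 98.4 to 216 FPKM with solvent, and its log2 difference was -0.48 with an SE of 0.22. Ndufs3, a core subunit of the same complex, had a log2 difference of -0.54 with an SE of 0.26.

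The level of the respiratory chain was highest in the libraries rich in heart muscle markers. The 4 libraries rich in heart muscle, with a mean log2 marker level of 4 or more, were also the 4 with the highest complex I level, at 5.72 in XCT790 replicate 5 and at 5.76 to 6.12 in solvent replicates 2, 5 and 6. The other libraries lay at 5.22 to 5.71 with XCT790 and 5.01 to 5.45 with solvent. Among these other libraries complex I did not follow the markers one by one. XCT790 replicate 3 had a complex I level of 5.71 at a marker level of 2.27. XCT790 replicates 2 and 4 had 5.22 and 5.38 at marker levels of 2.55 and 2.83. When only the 4 XCT790 and 3 solvent libraries poor in heart muscle were compared, a choice made after seeing the data, 21 of 37 complex I genes were higher and 16 lower (median 0.10), and 30 of 43 genes of complexes II to V were higher and 13 lower (median 0.16). The ERRα target list then had 25 genes higher and 22 lower, with a median of 0.03. TCA cycle genes were then higher in 16 and lower in 9 of 25 (median 0.15). Genes of fatty acid uptake and oxidation were higher in 16 and lower in 13 of 29 (median 0.09). With the heart muscle level as a covariate in the fit the medians were -0.05 for complex I, 0.02 for complexes II to V and -0.09 for the ERRα targets. In that fit they were -0.06 for the TCA cycle and -0.06 for fatty acid oxidation. The heart muscle markers include Cox6a2, Cox7a1 and Cox8b, which encode complex IV subunits, and Ckmt2. The marker level is therefore not a measure independent of the respiratory chain and the ERRα targets. Moving XCT790 replicates 1 to 3 to solvent, as the agent field has them, gave medians of 0.05 for complex I, 0.15 for complexes II to V, -0.07 for the ERRα targets, -0.02 for the TCA cycle and 0.11 for fatty acid oxidation. Leaving out 1 library gave medians of -0.37 to -0.10 for complex I and -0.33 to -0.06 for complexes II to V, in both cases without solvent replicate 1 and without solvent replicate 6. With all libraries, 3 of the ERRα targets were lower at p under 0.05, but 9 were without XCT790 replicate 5 or solvent replicate 1, 7 without solvent replicate 4, 5 without solvent replicate 3, 1 without solvent replicate 6 and 2 without any other single library, where 0.628% to 1.49% of all genes were lower at that p in the fits that leave out 1 library.

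**Figure D2:**
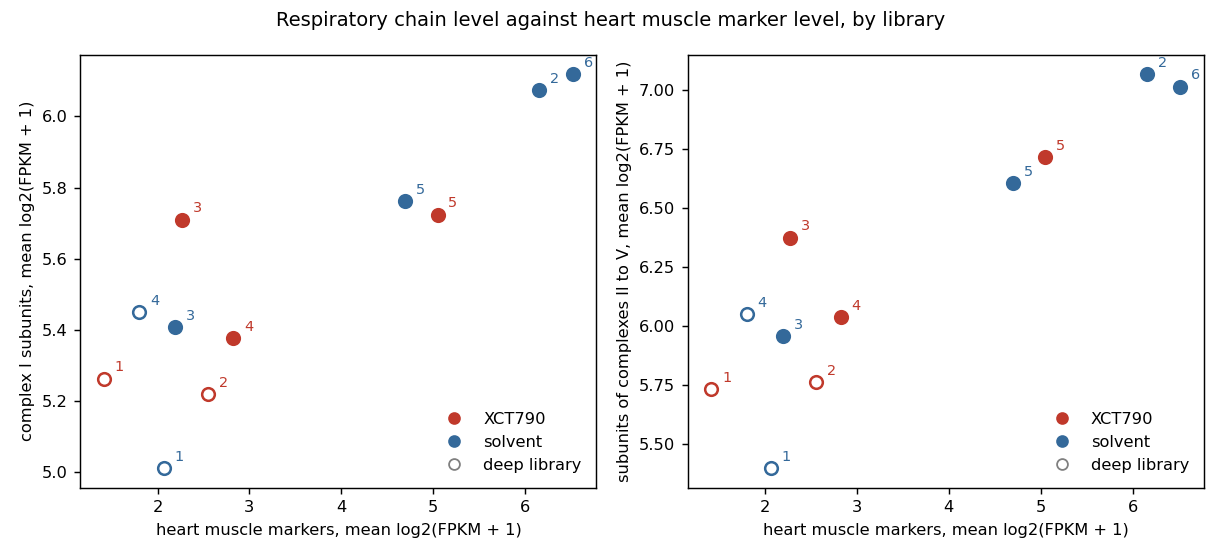
Mean log2(FPKM + 1) of nuclear complex I genes (left) and genes of complexes II to V (right) on the y axes against the mean log2(FPKM + 1) of heart muscle markers on the x axes, 1 point per library with its replicate number. XCT790 libraries are red, solvent libraries blue and deep libraries open. The libraries to the right, XCT790 replicate 5 and solvent replicates 2, 5 and 6, are also the highest on both y axes. The heart muscle markers include the complex IV genes Cox6a2, Cox7a1 and Cox8b.

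Promoters of these genes were searched for the extended half-site that ERRα is known to bind, spelled TNAAGGTCA on either strand, from 250 bases before to 50 bases after each RefSeq start on GRCm38.p6. The element was found in 421 of 32851 windows of that length (1.28%). Of 37 complex I genes 33 had a window and 1 held the element, and of 43 genes of complexes II to V 30 had a window and 2 held it. Among genes with a window, the element was in 1 of 37 reported ERRα targets, in 0 of 20 genes of the TCA cycle and in 0 of 21 of fatty acid oxidation. These counts are of genes, where a gene counts if any of its windows holds the element, while 1.28% is a share of windows. The promoters of Ndufb4, an accessory subunit of complex I, and of Atp5g3, which encodes the ring subunit c of ATP synthase, are shown because they are the members of the respiratory chain lists with the element upstream of the start. Capitals mark the element. Each run gives the 250 bases before the start on the gene's own strand, which is the minus strand in both cases, at chr16:37654369-37654618 for Ndufb4 and chr2:73911327-73911576 for Atp5g3.
Ndufb4: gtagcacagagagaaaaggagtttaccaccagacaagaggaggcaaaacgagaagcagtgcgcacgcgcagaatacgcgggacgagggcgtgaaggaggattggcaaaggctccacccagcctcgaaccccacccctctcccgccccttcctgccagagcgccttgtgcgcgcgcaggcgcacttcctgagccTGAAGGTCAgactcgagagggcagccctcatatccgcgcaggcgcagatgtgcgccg
Atp5g3: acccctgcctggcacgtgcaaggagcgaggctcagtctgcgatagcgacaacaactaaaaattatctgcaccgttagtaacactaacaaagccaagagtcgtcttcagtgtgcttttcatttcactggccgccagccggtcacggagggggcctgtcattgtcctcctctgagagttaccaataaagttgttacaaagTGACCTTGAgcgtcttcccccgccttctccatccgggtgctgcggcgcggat
The element of Ndufb4 starts 57 bases before the start and that of Atp5g3, on the other strand, 52 bases before it. Sdhd, a membrane anchor of complex II, holds TGACCTTGA after its start. The log2 difference between XCT790 and solvent was 0.13 for Ndufb4 (SE 0.29), -0.09 for Atp5g3 (SE 0.35) and -0.10 for Sdhd (SE 0.33), and none of the 3 had a p under 0.05. A match is a run of letters and no evidence that the receptor binds there in the valve.

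Markers of macrophages and monocytes were higher with XCT790 in 23 of 24 genes tested, with 6 of them at p under 0.05 (1.63% of all genes were higher at that p), 0 lower at that p and a median log2 difference of 0.55. C1qb, a chain of complement C1q made by tissue macrophages, had 272, 327, 540, 592 and 722 FPKM in XCT790 replicates 1 to 5, against 166 to 368 FPKM with a median of 278 FPKM with solvent. XCT790 replicates 3, 4 and 5 lay above every solvent library, while replicates 1 and 2 lay within their range (log2 difference 0.78, SE 0.33, 95% interval 0.10 to 1.47). Ccr2, the receptor that draws monocytes from the blood, had 3.64, 3.31, 5.98, 0.623 and 17.99 FPKM with XCT790, against 0 to 1.47 FPKM with a median of 0.651 FPKM with solvent. Here replicate 4 was the only XCT790 library within the solvent range (log2 difference 1.74, SE 0.58, 95% interval 0.55 to 2.94). Fcgr1, the high-affinity receptor for IgG, had 3.06 to 23.9 FPKM with XCT790 and 0.947 to 4.94 FPKM with solvent (log2 difference 1.08, SE 0.46, 95% interval 0.13 to 2.04).

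Other leukocyte genes stood among those with the smallest p, outside the macrophage list. Itgb2, the β chain that the leukocyte integrins share, had the smallest p of all genes. It had 13.9, 28.3, 17.6, 26.2 and 26.6 FPKM in XCT790 replicates 1 to 5, against 1.95, 6.81, 12.0, 7.09, 2.25 and 5.14 FPKM in solvent replicates 1 to 6. The groups did not overlap, with a mean of 22.5 ± 6.35 FPKM with XCT790 and 5.87 ± 3.70 FPKM with solvent (SD, n = 5 and 6), and a log2 difference of 1.91 with an SE of 0.42 (95% interval 1.05 to 2.78). Ptpn6, the phosphatase SHP-1 of blood cells, had 8.99, 12.4, 24.1, 12.4 and 30.1 FPKM with XCT790, against 1.54 to 14.9 FPKM with a median of 4.85 FPKM with solvent (log2 difference 1.60, SE 0.45, 95% interval 0.67 to 2.53). Msr1, a scavenger receptor of macrophages that takes up modified lipoproteins, had 10.5, 30.2, 25.7, 38.2 and 20.1 FPKM with XCT790, against 2.82 to 15.9 FPKM with a median of 10.2 FPKM with solvent. XCT790 replicate 1 lay among the solvent libraries and the other 4 above them all (log2 difference 1.26, SE 0.39, 95% interval 0.46 to 2.07). Over 28 other fits, these 3 genes kept a positive difference and an unadjusted p under 0.05 in each, with Itgb2 between 1.60 and 2.18. The 3 were named for their small p in these libraries, which the other fits largely reuse, so this is no independent support.

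**Figure D3:**
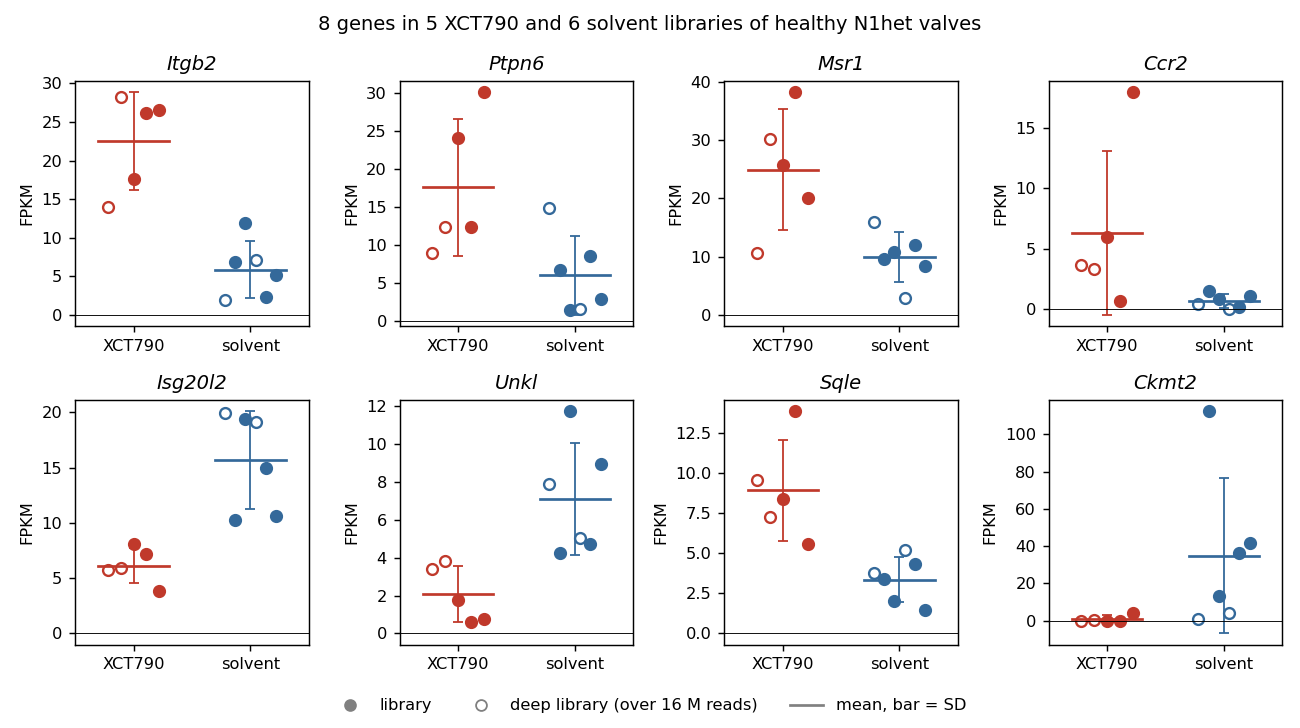
FPKM (y axis) of 8 genes in the 5 XCT790 libraries (left in each panel) and the 6 solvent libraries (right) of healthy N1het valves. Points are libraries, open where deep, and lines and bars are means and SD. The groups do not overlap for Itgb2, Isg20l2, Unkl and Sqle and overlap for the others, with Ckmt2 at most 4.36 FPKM with XCT790.

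The macrophage difference was uneven across libraries. The mean log2(FPKM + 1) of the list was 5.21 and 5.24 in XCT790 replicates 1 and 2, which are deep libraries, and 6.03, 6.22 and 6.60 in replicates 3, 4 and 5. With solvent it was 5.26 and 4.62 in the deep replicates 1 and 4 and 5.35 to 5.55 in the others. Outside the deep libraries the 3 XCT790 libraries thus lay above all 4 solvent libraries, the median log2 difference was 0.86, and 12 of 24 genes had a p under 0.05, all higher, where 2.38% of all genes were higher at that p. Among the deep libraries, which were not tested on their own, the mean of the 2 XCT790 libraries was 5.23 and that of the 2 solvent libraries 4.94. In the libraries poor in heart muscle all 24 genes were higher (median 0.46), with 2 at p under 0.05, where 2.25% of all genes were higher at that p. Under the agent field, which leaves replicates 4 and 5 as XCT790, 23 of 24 were higher with a median of 1.13, and 16 had a p under 0.05, where 3.43% of all genes were higher at that p. Of the 24, 11 and 8 had a p under 0.05 without XCT790 replicate 1 or 2, 1 or 2 without XCT790 replicate 3, 4 or 5 or solvent replicate 4, and 5 or 6 without any other single library, with medians of 0.37 to 0.77, and 1.42% to 2.1% of all genes were higher at that p in these fits.

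Endothelial markers ran the other way. Of 22 tested, 19 were lower with XCT790 and 3 higher, with a median log2 difference of -0.46 and 1 lower at p under 0.05, where 1.02% of all genes were. That gene was Sox17, a transcription factor of arterial endothelium, with 1.09, 0.822, 1.35, 1.34 and 0.809 FPKM with XCT790, against 1.10 to 7.75 FPKM with a median of 3.66 FPKM with solvent (log2 difference -1.14, SE 0.48, 95% interval -2.13 to -0.14). The groups overlapped through solvent replicate 5 alone. Pecam1, which joins endothelial cells to each other and is among the most abundant markers of the list, had 53.2 to 157 FPKM with XCT790 and 51.4 to 259 FPKM with solvent (log2 difference -0.13, SE 0.38). Outside the deep libraries the mean level of the list was 3.56 to 4.23 in 3 XCT790 libraries and 4.59 to 5.13 in 4 solvent libraries. In that subset 10 of 22 genes were lower at p under 0.05 (2.39% of all genes were) and the median was -0.86. Without solvent replicate 4, 4 endothelial markers were lower at p under 0.05, 2 without XCT790 replicate 2 or solvent replicate 1, 0 without solvent replicate 3 and 1 without any other single library, with medians of -0.70 (without solvent replicate 4) to -0.27 (without XCT790 replicate 4). In these fits 0.628% to 1.49% of all genes were lower at that p. In the deep libraries the level of the list was 3.86 and 4.33 with XCT790 and 3.99 and 3.17 with solvent. The mean there was higher with XCT790 (4.10) than with solvent (3.58), opposite to the other libraries. In the libraries poor in heart muscle 14 of the 22 genes were lower and 8 higher (median -0.22). Of these, 1 was lower at p under 0.05, as were 1.12% of all genes. The part of cell composition in these differences was not tested.

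**Figure D4:**
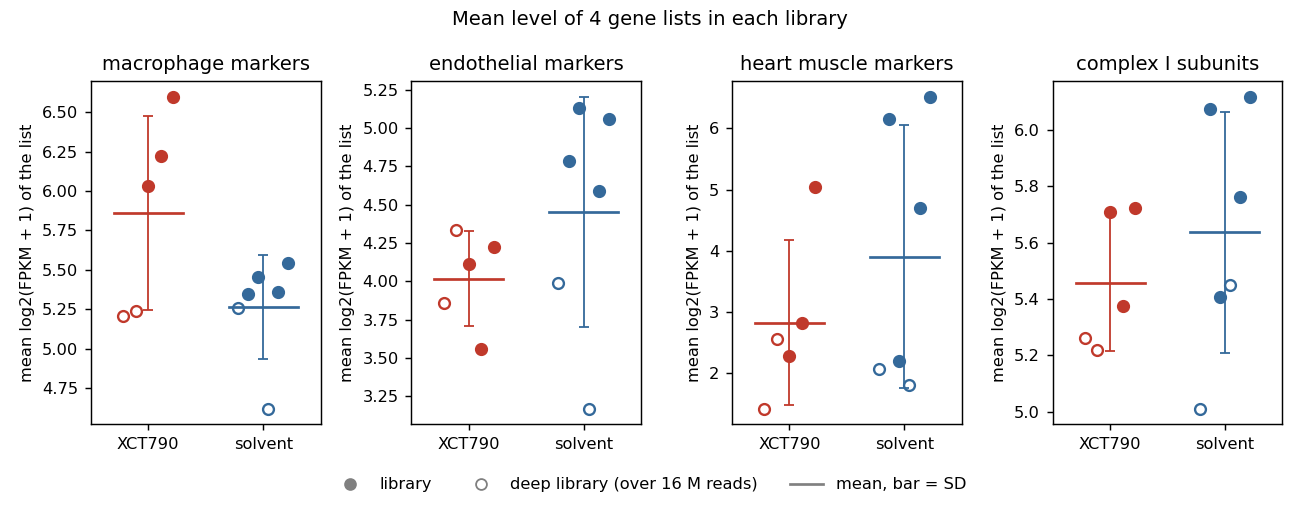
Mean log2(FPKM + 1) (y axes) of macrophage, endothelial and heart muscle markers and of nuclear complex I genes in each library, XCT790 left and solvent right. Open points are deep libraries, lines and bars are means and SD. Outside the deep libraries the macrophage level is 6.03 to 6.60 with XCT790 and 5.35 to 5.55 with solvent, and the endothelial level 3.56 to 4.23 with XCT790 and 4.59 to 5.13 with solvent.

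Immune response genes had small positive differences. Genes of antigen presentation were higher in 16 of 17 (median 0.28), with 3 at p under 0.05, where 1.63% of all genes were higher at that p. These 3 belong to the class II pathway that macrophages and dendritic cells use. H2-Aa, the α chain of the class II molecule I-A, had 479.5, 457, 1212, 670.5 and 1969 FPKM with XCT790, against 196 to 571 FPKM with a median of 440 FPKM with solvent. XCT790 replicates 3, 4 and 5 lay above all solvent libraries (log2 difference 0.98, SE 0.39, 95% interval 0.16 to 1.80). H2-Eb1, the β chain of I-E, had a log2 difference of 1.06 with an SE of 0.41, and H2-DMa, a chain of the peptide editor H2-DM, one of 1.20 with an SE of 0.50. Without XCT790 replicate 5 the median of the antigen presentation list was 0.08 with 0 genes at p under 0.05, 1 gene was without XCT790 replicate 3, and the median was 0.46 without XCT790 replicate 4 and 0.43 without solvent replicate 1. In the libraries poor in heart muscle 10 of the 17 genes were higher and 7 lower (median 0.10), and with groups from the agent field 13 were higher (median 0.53). Interferon-stimulated genes were higher in 28 of 31 (median 0.24), with 1, Oasl2, at p under 0.05 (16.7 to 47.2 FPKM with XCT790 and 5.76 to 31.7 FPKM with solvent). Leaving out 1 library gave medians of 0.17 (without solvent replicate 3) to 0.45 (without solvent replicate 4). The number higher was then 22 (without XCT790 replicate 1) to 29 (without XCT790 replicate 4). It was 20 of 31 with groups from the agent field (median 0.26) and 22 of 31 outside the deep libraries (median 0.33). Cytokines and adhesion molecules were higher in 22 and lower in 8 of 31 (median 0.48), with 1, the lymphoid chemokine Ccl19, at p under 0.05 (log2 difference 0.88, SE 0.38). Their median was 0.18 without solvent replicate 1, 0.19 without XCT790 replicate 5 and 0.25 without solvent replicate 4. With groups from the agent field it was 0.73, with 7 at p under 0.05, where 3.43% of all genes were higher at that p. Members of these lists are not independent of each other, and the mean macrophage level, like H2-Aa, was above that of all solvent libraries in XCT790 replicates 3, 4 and 5.

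The genes lower with XCT790 at the smallest p came from several processes. Isg20l2, a nuclear exonuclease that helps to mature ribosomal RNA, had 5.71, 5.94, 8.10, 7.15 and 3.81 FPKM in XCT790 replicates 1 to 5, against 19.9, 10.2, 19.4, 19.1, 14.9 and 10.7 FPKM in solvent replicates 1 to 6. The groups did not overlap, with means of 6.14 ± 1.62 FPKM with XCT790 and 15.7 ± 4.45 FPKM with solvent (SD, n = 5 and 6), and a log2 difference of -1.21 with an SE of 0.31 (95% interval -1.86 to -0.57). Unkl, which encodes a zinc finger protein related to the Drosophila gene unkempt, had 3.40, 3.83, 1.75, 0.623 and 0.758 FPKM with XCT790, against 4.26 to 11.8 FPKM with a median of 6.45 FPKM with solvent. Its groups did not overlap either (log2 difference -1.47, SE 0.39, 95% interval -2.28 to -0.65). Fam133b had 0.982 to 10.6 FPKM with XCT790 and 9.43 to 18.4 FPKM with solvent (log2 difference -1.23, SE 0.36). Mrm1, a methyltransferase of mitochondrial ribosomal RNA, had 1.48 to 7.05 FPKM with XCT790 and 3.70 to 32.5 FPKM with solvent (log2 difference -1.29, SE 0.42). Dnajc15, a cochaperone of mitochondrial protein import, had a log2 difference of -1.10 (SE 0.38) and Kif2a, a kinesin that takes microtubules apart, one of -0.85 (SE 0.30).

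Among genes higher with XCT790 outside the immune lists, Ddrgk1, an endoplasmic reticulum protein of the UFM1 conjugation pathway, had 28.1, 26.9, 52.2, 43.4 and 53.1 FPKM with XCT790, against 17.2 to 29.3 FPKM with a median of 20.6 FPKM with solvent. Only XCT790 replicates 1 and 2 lay within the solvent range (log2 difference 0.83, SE 0.21, 95% interval 0.38 to 1.27). Twist2, a transcription factor of mesenchymal cells, had 6.25 to 18.2 FPKM with XCT790 and 0 to 8.57 FPKM with solvent (log2 difference 2.02, SE 0.60), and Fxyd2, a modulator of the sodium pump, 6.42 to 27.1 FPKM with XCT790 and 0.322 to 7.25 FPKM with solvent (log2 difference 1.91, SE 0.53).

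Genes of cholesterol synthesis were higher in 21 and lower in 8 of 29 (median 0.21), with 2 higher at p under 0.05, against 1.63% of all genes. The median was 0.11 without XCT790 replicate 4, 0.13 without solvent replicate 6 and 0.06 in the libraries poor in heart muscle, and with groups from the agent field it was 0.43 with 4 genes at p under 0.05 (3.43% of all genes). Sqle, the squalene epoxidase that controls flux late in the pathway, had 9.57, 7.26, 8.38, 13.9 and 5.57 FPKM with XCT790, against 3.75, 3.38, 2.01, 5.20, 4.34 and 1.46 FPKM with solvent. The groups did not overlap (log2 difference 1.21, SE 0.42, 95% interval 0.34 to 2.08). Sc5d, a sterol desaturase, had a log2 difference of 0.79 with an SE of 0.34. Gstm1, a glutathione transferase of xenobiotic defence, had 528 to 624.7 FPKM with XCT790 and 368 to 508 FPKM with solvent. These ranges did not overlap, although the log2 difference was 0.35 with an SE of 0.19. Over all genes tested, the groups did not overlap for 0.267%. Cyp1b1, an enzyme that oxidises steroids and foreign compounds, had 1.55 to 4.16 FPKM with XCT790 and 2.30 to 24.6 FPKM with solvent (log2 difference -1.25, SE 0.52, 95% interval -2.33 to -0.17). As lists, oxidative stress genes were higher in 14 and lower in 10 of 24 (median 0.02). Genes of steroid and xenobiotic response were higher in 12 and lower in 8 of 20 (median 0.05). The median over all genes was 0.03.

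Cell cycle genes were higher in 20 and lower in 7 of 27 (median 0.17). That median was 0.37 without XCT790 replicate 2, 0.29 without XCT790 replicate 1, 0.11 without XCT790 replicate 3 or 4 and 0.31 with groups from the agent field. The 2 at p under 0.05, where 1.63% of all genes were higher at that p, were Ube2c, which tags mitotic proteins for destruction, with 2.33 to 22.4 FPKM with XCT790 and 0.220 to 7.54 FPKM with solvent (log2 difference 1.79, SE 0.58), and Tpx2, a spindle assembly factor (log2 difference 1.13, SE 0.40). The mean level of the cell cycle list was 1.95 to 2.15 in XCT790 replicates 3, 4 and 5. It was 1.41 to 1.84 in the solvent libraries that were not deep. In the deep libraries it was lower with XCT790 (1.48 and 1.49) than with solvent (1.59 and 1.70). In the libraries poor in heart muscle 16 of the 27 genes were higher and 11 lower (median 0.20), with 0 at p under 0.05. Genes of telomerase and telomere protection split evenly, with 8 higher and 8 lower of 16. Nhp2 and Gar1, proteins of the small nucleolar ribonucleoprotein particles that also bind telomerase RNA, were the 2 at p under 0.05, both lower, as were 1.02% of all genes. Nhp2 had 8.01, 4.29, 8.64, 18.1 and 14.8 FPKM with XCT790, against 11.8 to 55.5 FPKM with a median of 20.9 FPKM with solvent (log2 difference -1.08, SE 0.38). Gar1 had 5.85 to 10.98 FPKM with XCT790 and 4.49 to 25.4 FPKM with solvent (log2 difference -0.74, SE 0.32).

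**Figure D5:**
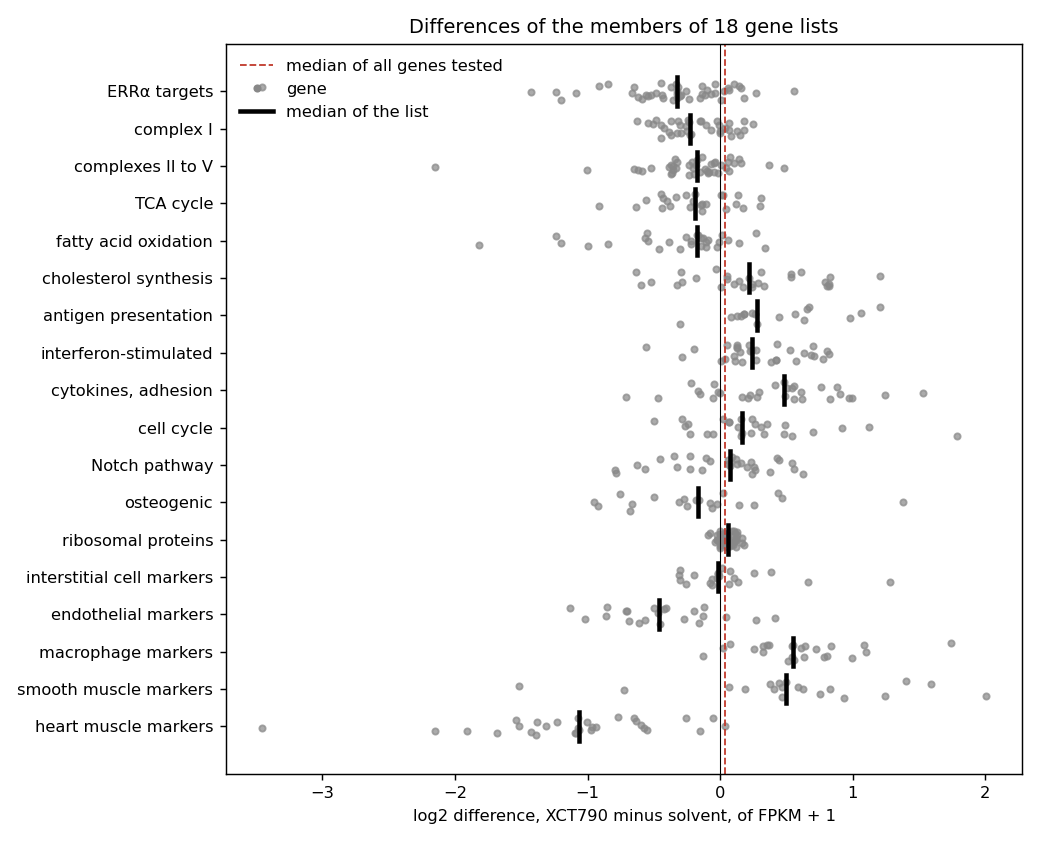
Log2 difference of FPKM + 1, XCT790 minus solvent (x axis), of each tested member of 18 gene lists (y axis). Points are genes, black bars list medians, the dashed line the median of all genes tested at 0.03. Macrophage markers lie mostly to the right (median 0.55), heart muscle (-1.07) and endothelial (-0.46) markers to the left, and ribosomal proteins close to 0.

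Matrix and interstitial cell genes lay near the median of all genes. Interstitial cell and fibroblast markers were higher in 9 and lower in 12 of 21 (median -0.02), fibrillar and basement membrane collagens higher in 10 and lower in 8 of 18 (median 0.06), and genes of proteoglycans and elastic fibres higher in 16 and lower in 18 of 34 (median -0.0045). The 95% interval of the difference lay within 2-fold for 15 of 21, 12 of 18 and 25 of 34 of these genes, against 40.8% of all genes. Their median SEs were 0.30, 0.33 and 0.31, against 0.41 over all genes. Over the 3671 genes with a mean of 20 FPKM or more over the series, the median SE was 0.27. The width of an interval thus varies with level, which the 40.8% does not take into account. Notch receptors, ligands and targets were higher in 19 and lower in 12 of 31 (median 0.08, and -0.04 with groups from the agent field), and osteogenic genes, which mark mineralising valves, higher in 6 and lower in 14 of 20 (median -0.17, and -0.28 with groups from the agent field), with 0 in both lists at p under 0.05. Cytosolic ribosomal protein genes had a median of 0.06, and all 46 had an interval within 2-fold, at a median SE of 0.21. Smooth muscle markers were higher in 17 of 19 (median 0.50), with 1 at p under 0.05, where 1.63% of all genes were higher at that p. That gene was the pericyte gene Rgs5 (log2 difference 0.45, SE 0.20, and -0.092 with groups from the agent field). The summed level of the smooth muscle markers was 567 to 2204 FPKM with XCT790 and 357 to 1239 FPKM with solvent. XCT790 replicate 2 held the highest sum, and without it 14 of 19 were higher (median 0.26). In the libraries poor in heart muscle 18 of 19 were higher (median 1.05), with 6 at p under 0.05, where 2.25% of all genes were higher at that p, and with groups from the agent field 14 were higher (median 0.23).

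The authors' deposited table marks 26 of 20872 genes (0.125%) as changed between XCT790 and solvent in healthy valves, by a test not given in the sources used here. Of the 26 genes marked in the authors' deposited table, 11 passed the filter on low values and 4 had an unadjusted p under 0.05 here, as did 2.65% of all genes tested. The marks are for the same 2 groups of libraries, so they are no independent support. Of the same 26, 15 were at 0 in all 5 XCT790 libraries, 7 were at 0 in all 6 solvent libraries and 7 were above 0 in only 1 of the 11. Itgb2 and Isg20l2 were the 2 genes marked in the authors' deposited table whose groups did not overlap, and the 2 with a mean of 5 FPKM or more. Over all genes tested, the groups did not overlap for 0.267%.

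Stenotic N1het valves, which share no library with the healthy ones, allow the same comparison by title, with 3 libraries a group. As the agent field names XCT790 for their solvent libraries too, there is no such comparison by that field, and the values below hold only if the titles are right. Between XCT790 and solvent in stenotic valves 0 genes were called, and 501 had a p under 0.05 (3.35%). In the test of the difference between the 2 responses 0 genes were called, and 446 had a p under 0.05 (2.98%). For Itgb2 the log2 difference was -0.47 with an SE of 0.56 in stenotic valves and 1.91 with an SE of 0.42 in healthy ones, and stenotic minus healthy was -2.39 with an SE of 0.70 and an adjusted p of 1. For Isg20l2 it was 1.04 with an SE of 0.42 in stenotic and -1.21 with an SE of 0.31 in healthy valves, with an adjusted p of 0.974 for the difference. Of the 24 macrophage markers 0 were higher with XCT790 in stenotic valves (median -0.30) and 23 in healthy ones (median 0.55). Endothelial markers were higher in 13 of 22 in stenotic valves (median 0.16) and in 3 of 22 in healthy ones (median -0.46). In the same order, antigen presentation genes were higher in 4 of 17 (median -0.14) and 16 of 17 (median 0.28). Cytokines and adhesion molecules were higher in 22 of 31 in both (medians 0.27 and 0.48). Cell cycle genes were higher in 7 of 27 in stenotic valves (median -0.35) and in 20 of 27 in healthy ones (median 0.17). Reported ERRα targets were higher in 20 of 47 in stenotic valves (median -0.04) and in 10 of 47 in healthy ones (median -0.32). Complex I genes were higher in 27 of 37 in stenotic valves (median 0.12) and in 9 of 37 in healthy ones (median -0.23). Genes of complexes II to V were higher in 16 of 43 in stenotic valves (median -0.13) and in 10 of 43 in healthy ones (median -0.17). TCA cycle genes were higher in 8 of 25 in stenotic valves (median -0.16) and in 8 of 25 in healthy ones (median -0.19), and genes of fatty acid oxidation in 12 of 29 in stenotic valves (median -0.12) and in 5 of 29 in healthy ones (median -0.17). In healthy WT valves Itgb2 had 6.94 to 19.4 FPKM and Isg20l2 4.35 to 15.7 FPKM, and for both genes this range overlapped with that of each healthy N1het group.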

How the data were processed

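Per the labels' protocols, valve RNA was isolated with a Qiagen RNeasy Micro kit and amplified with NuGEN's Ovation V2 system. The submitters' processing notes name the tools FastQC, Picard, SAMtools and HISAT2, and mm9 as the genome build. No counter, gene annotation or strandedness was found in the sources used here, so overlapping, antisense or near-identical genes may share reads. The authors deposited 1 table of 20872 genes with the FPKM of each of 21 libraries, per the file headers, and 0/1 marks of changed genes. All nonzero FPKM of a gene are whole multiples of a step, within 0.01 reads, which gave the read totals (8.4 to 27.3 M). Intervals cover counting error and spread between libraries only, since amplified reads are not independent molecules.

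Groups follow the titles. Differences of log2(FPKM + 1) were fitted in R 4.3.3 by limma 3.58.1 with statmod 1.5.0, as 5 group means over 21 libraries with a robust, mean-dependent variance prior. Benjamini-Hochberg adjustment ran over 14966 genes whose FPKM averaged at least 1 over the series, which leaves out 5906. Library measures were compared by exact two-sided permutation in Python. The planned count tests were replaced, because the table holds FPKM. The script was tested on simulated data. The members and the 45 gene lists (1039 symbols, 987 genes matched, 83 in more than 1 list) were chosen with earlier results of these data known. Named genes are Esrra, Esrrb, Esrrg, Ppargc1a, Ppargc1b, Notch1 and Terc, genes with the smallest p in each direction (up to 10, with a mean of 2 FPKM or more over the 11 libraries, model names passed over) and up to 3 members of each list with the smallest p or, for markers, the highest level, described in part, with 1 gene not reported here. Alternatives were another pseudocount, filters, scalings, covariates, subsets of libraries, the agent field, a block by replicate number, voom on the recovered reads and leaving out each library. Same-numbered libraries of the 2 groups did not deviate together (r = -0.0375 to 0.0917), so no pairing was used. Promoter sequences are from RefSeq (GRCm38.p6), a different build from that of the reads, and were matched by gene.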

Additional observations from a re-analysis of the deposited data

Results flagged for a closer look

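For the genes named, 82 groups of 5 or 6 libraries were examined on the log2(FPKM + 1) scale for 1 library far from the others, and 8 stood out, where chance gives about 5%. Esrra had 0.3645 FPKM in solvent replicate 3 and 1.24 to 1.84 FPKM in the other solvent libraries. Esrrb had 0.1678 FPKM in XCT790 replicate 1 with 0 in the other XCT790 libraries, and 1.859 FPKM in solvent replicate 2 with 0 to 0.312 FPKM in the other solvent libraries. Esrrg was at 0 FPKM in XCT790 replicate 4 and at 1.14 to 1.76 FPKM in the other XCT790 libraries. Ckmt2 had 4.363 FPKM in XCT790 replicate 5, which is rich in heart muscle markers, and 0.0498 to 0.394 FPKM in the other XCT790 libraries. Sc5d had 3.08 FPKM in solvent replicate 5 and 7.56 to 12.0 FPKM in the other solvent libraries. H2-Aa had 196 FPKM in solvent replicate 6 and 390 to 571 FPKM in the other solvent libraries. Fcgr1 had 0.9469 FPKM in solvent replicate 3 and 3.02 to 4.94 FPKM in the other solvent libraries. Between healthy and stenotic valves, the response to XCT790 differed for 0 genes at an adjusted p under 0.05 in limma, with 446 at an unadjusted p under 0.05.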

How the results depend on the processing

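At an adjusted p under 0.1 limma called 0 genes, and under 28 other fits 0 in all but 1, with 226 to 1061 genes at an unadjusted p under 0.05 (main 397). The exception took groups from the agent field, with 1 called gene, Chrnb1, a muscle acetylcholine receptor subunit, singled out after its value was seen (log2 difference -2.76, SE 0.45, adjusted p = 0.0443 in limma). By title its log2 difference was -1.28 (adjusted p = 1). Voom gave 0 calls (462 at p under 0.05), and so did voom with sample quality weights (576). The replicate block, which pairs nothing by design, gave 0 calls (538), and 0 of 5 XCT790 libraries correlated best with the solvent library of the same number. The planned quasi-likelihood count test was not run.

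Of 1083 values of 39 named genes, 1063 kept their direction and 20 did not, and 0 passed the threshold. By setting, the reversed log2 differences were 0.061 (Esrrg) and 0.10 (Ppargc1a) with the heart muscle covariate; 0.13 (Esrrg), 0.39 (Ppargc1a) and 0.058 (Pecam1) among libraries low in heart muscle; 0.23 (Ppargc1a), 0.14 (Nhp2), -0.27 (Ccl19) and -0.092 (Rgs5) by the agent field; and, for Ppargc1a, 0.014 with the replicate block, 0.075 where both fields agree and 0.020 with voom. The cause was not tested. Leaving out single libraries gave -0.32 to 0.17 for Esrrg, -0.52 to 0.042 for Ppargc1a, -0.25 to 0.027 for Notch1 and -0.37 to 0.12 for Pecam1. The median of the macrophage list was above 0 in all 28 fits (0.37 to 1.20) and that of the endothelial list below 0 (-0.86 to -0.22), while that of complex I changed sign in 2 and that of complexes II to V in 4. Rescaling the FPKM gave a median over all genes of -0.0017 (median of ratios) or 0.01 (upper quartile), against 0.03. The median SE was 0.41. The 95% interval lay within 2-fold for 6103 genes and wholly beyond 2-fold for 4. For all other genes, a difference of 2-fold in at least 1 direction is within the interval.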
